A study of Mus musculus with 10 samples.

Results

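The respiratory chain genes of mouse cutaneous tumors were followed here across 10 RNA-seq libraries. The genes were taken by name: protein-coding genes whose symbol begins with mt-, Nduf, Uqcr, Atp5 or Cox with a digit from 4 to 8, together with Sdha, Sdhb, Sdhc, Sdhd and Cyc1. Of 35275 listed genes, 106 matched and 104 had a summed count of at least 10. Cox7b2, counted in 0 tumors, and Cox8c, with 3 counts in all, were left out. The 104 genes comprised 13 encoded by the mitochondrial genome and 91 encoded in the nucleus. Of the nuclear genes, 75 were structural subunits, 7 were the complex I assembly factors Ndufaf1 to Ndufaf7, 6 were tissue isoforms of subunits, and the other three were Cox7a2l, Atp5s and Atp5sl.

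Of the 10 tumors, 5 were labelled LDHA-/- and are called *Ldha*-null here, and 5 were labelled wild type. *Ldha* encodes the lactate dehydrogenase subunit that converts pyruvate to lactate, and the study asked whether squamous tumors need it. The study made tumors from hair follicle stem cells with K15CrePR or Lgr5CreER, either through conditional alleles, loss of p53 among them, or by DMBA/TPA treatment of the skin, and the labels do not say which tumors were sequenced, nor the age of the animals. All RNA came from whole fresh tumors, so that stroma and adjacent tissue may be present, and fewer cells of a type cannot be told apart from less RNA per cell.

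The respiratory chain passes electrons from NADH through complex I, or from succinate through complex II, to complex III and then to oxygen at complex IV, and the proton gradient so formed drives ATP synthesis at complex V. Complex II is built from nuclear gene products alone, whereas the other complexes combine nuclear subunits with subunits made inside the mitochondrion. The mitochondrial genes are transcribed as long precursors from both strands and then cut apart. Several subunits of complex IV exist as tissue isoforms, of which those of heart and skeletal muscle are the best known.

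Total counts per tumor ranged from 15052860 to 17398949 in the *Ldha*-null and from 12969508 to 17694201 in the wild-type tumors. *Ldha* RNA did not separate the labels: its FPKM (fragments counted, scaled to gene length and library total) was 246 to 1883 in the *Ldha*-null and 340 to 2824 in the wild-type tumors, so the genotype rests on the labels alone. *Ldha*-null tumor 1 stood apart. The summed FPKM of 12 skeletal muscle markers was 115389 in that tumor and 52.7 to 268 in the other 9, and all 12 markers were at their highest in it. *Ldha*-null tumor 3 and wild-type tumor 5 also differed from the rest, with keratinocyte markers summing to 34797 and 35010 FPKM against 227 to 5401 elsewhere. The mesenchymal markers Vim, Fn1, Col3a1 and Zeb1 were lowest in these tumors and in *Ldha*-null tumor 1, but Col1a1 and Pdgfrb were not. Col1a1, at 1719 FPKM in wild-type tumor 5, was above *Ldha*-null tumor 5 (583) and wild-type tumor 1 (714). Fold changes between the genotypes are therefore also given without *Ldha*-null tumor 1.

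Stretches of a pair of mitochondrial genes are shown first because sequence shared with the nuclear genome bears on the values of several mitochondrial genes below. Capitals mark bases lying in a 50-base window that is also present in a nuclear pseudogene on chromosome 1 (GENCODE M21, build mm10), and each stretch crosses the edge of the copied part.
mt-Co1, chrM:6344-6443, plus strand: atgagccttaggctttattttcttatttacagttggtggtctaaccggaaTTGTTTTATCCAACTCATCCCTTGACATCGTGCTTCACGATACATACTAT
mt-Nd4, chrM:10993-11092, plus strand: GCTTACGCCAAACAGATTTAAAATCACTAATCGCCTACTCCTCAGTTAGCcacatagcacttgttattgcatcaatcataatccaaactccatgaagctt
The copied part covered 479 of the 1545 bases of mt-Co1 and 876 of the 1378 bases of mt-Nd4. Between these edges the copy runs on the minus strand of chromosome 1 from 24611535 to 24616197, as 7 neighbouring pseudogenes. Of the 50-base windows of each gene, 100% were found in another transcript for mt-Co2, 99.9% for mt-Co3, 99.5% for mt-Atp6, 98.8% for mt-Nd4l and 98.0% for mt-Nd3. The share was 62.2% for mt-Nd4 and 51.1% for mt-Co1, was 8.19% for mt-Nd2 and 7.61% for mt-Nd5, and was 0 for mt-Nd1, mt-Nd6, mt-Cytb and mt-Atp8.

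The mitochondrially encoded genes fell into an abundant and a scarce set along the genome. The abundant set held mt-Co1, the catalytic core of complex IV, mt-Cytb, the mitochondrial subunit of complex III, and the complex I subunits mt-Nd1, mt-Nd2, mt-Nd4, mt-Nd5 and mt-Nd6. mt-Co1 was highest of all respiratory chain genes, at 7607 ± 1948 FPKM (mean ± SEM, n = 5) in *Ldha*-null and 8710 ± 1579 FPKM (n = 5) in wild-type tumors. In single tumors mt-Co1 lay between 3857 and 14855 FPKM, mt-Nd1 between 2518 and 10930 FPKM and mt-Cytb between 2126 and 9828 FPKM. mt-Nd2 ranged from 986 to 6114 FPKM, mt-Nd4 from 739 to 4165 FPKM, mt-Nd5 from 562 to 2408 FPKM and mt-Nd6 from 631 to 3352 FPKM.

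The scarce set was 6 genes that follow each other from position 7013 to 10173 of the mitochondrial genome. They were mt-Co2 and mt-Co3, core subunits of complex IV, mt-Atp8 and mt-Atp6, subunits of complex V, and mt-Nd3 and mt-Nd4l of complex I. Their FPKM ranged from 8.05 to 30.6 for mt-Co2, 8.27 to 108 for mt-Atp8, 9.31 to 48.1 for mt-Atp6, 3.47 to 33.9 for mt-Co3 and 20.7 to 205 for mt-Nd3. mt-Nd4l was listed at 0 in 5 tumors and reached 2.71 FPKM at most in the others, and it was too low to be tested. Together the 6 genes held between 0.131% and 0.303% of the mitochondrially encoded counts of a tumor, although mt-Co2 and mt-Co3 stand beside mt-Co1 in complex IV.

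**Figure D1:**
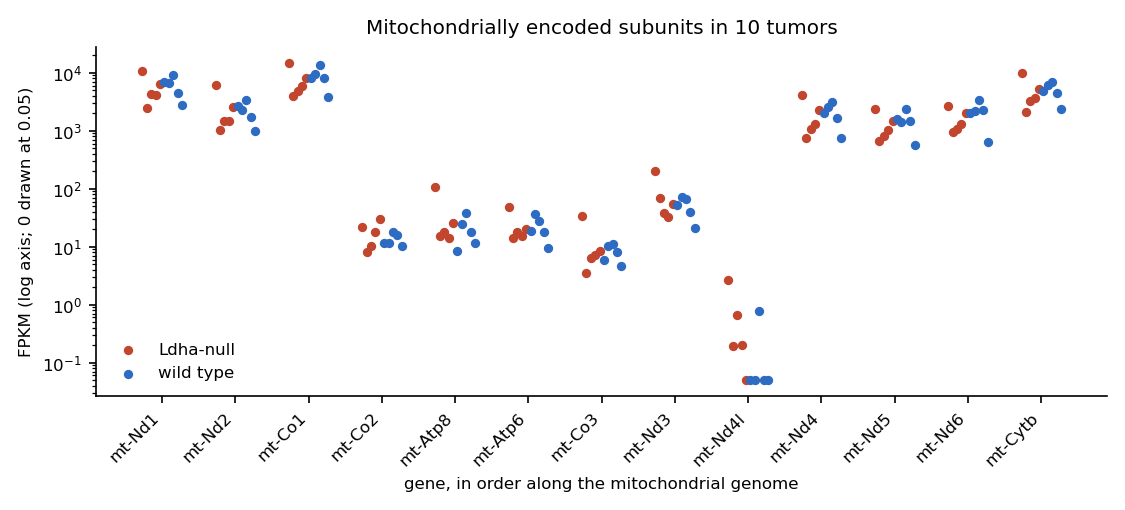
FPKM (log axis) of the 13 mitochondrially encoded genes in their order along the mitochondrial genome, 1 point per tumor, with 5 Ldha-null tumors in red and 5 wild-type tumors in blue. The 6 neighbouring genes from mt-Co2 to mt-Nd4l lie far below the 7 others in every tumor, and mt-Nd4l is at 0 in 5 tumors, drawn at 0.05.

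The scarce genes were, except for mt-Atp8, those whose windows were nearly all found again in annotated pseudogenes of the nuclear copy. mt-Atp8 lies between copied genes. The search covered annotated transcripts only, and none of the pseudogene rows lies between the copy of mt-Atp6, ending at 24614651, and that of mt-Co2, starting at 24614885. Whether mt-Atp8 is also copied there was not tested. How reads aligning to more than 1 place were counted is not given in the sources used here, and the part of the copy in the low values was not tested. The values of these 6 genes are uncertain for this reason. The 7 pseudogene rows of the copy held 48 to 3212 counts each, summed over the 10 tumors. Single tumors had 18 to 529 counts at the copy of mt-Nd3 and 108 to 1242 at mt-Nd3 itself, and 9 to 358 at the copy of mt-Co2 and 95 to 345 at mt-Co2, so these copies reached counts like those of the scarce genes. mt-Atp8 and mt-Atp6 share 43 bases, mt-Nd4l and mt-Nd4 share 7 bases, and in union mode a read over such bases is assigned to neither gene. mt-Nd6 is encoded on the opposite strand, and no strand setting is stated, so antisense RNA may have been counted with it.

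Within the mitochondrially encoded counts, composition was similar from tumor to tumor. mt-Co1 held 36.6% to 41.9% of them, mt-Cytb 15.3% to 18.4% and mt-Nd1 14.3% to 20.1%. The share of mt-Nd2 was 5.98% to 10.1%, that of mt-Nd4 6.92% to 9.24%, that of mt-Nd5 6.90% to 8.79% and that of mt-Nd6 2.21% to 3.96%. What varied was the total. As a share of all gene counts, the 13 genes took 6.27%, 1.48%, 2.07%, 2.35% and 3.45% in *Ldha*-null tumors 1 to 5, and 3.44%, 3.79%, 5.18%, 3.0% and 1.47% in wild-type tumors 1 to 5. The groups overlapped, and both held a tumor near 1.5% and a tumor above 5%.

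The nuclear encoded subunits behaved differently. The 75 structural subunits took 3.04%, 1.1%, 1.13%, 1.03% and 1.12% of counts in *Ldha*-null tumors 1 to 5, and 1.21%, 1.24%, 1.12%, 1.09% and 0.969% in wild-type tumors 1 to 5. *Ldha*-null tumor 1 was alone at the top, and the other 9 tumors lay within a narrow band. Over those 9 tumors the highest share was 1.27 times the lowest for the nuclear subunits and 3.52 times the lowest for the mitochondrial genes.

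The ratio of mitochondrial to nuclear counts needs no scaling between tumors. It was 2.06, 1.35, 1.83, 2.29 and 3.08 in *Ldha*-null tumors 1 to 5, and 2.83, 3.07, 4.61, 2.76 and 1.52 in wild-type tumors 1 to 5. The groups overlapped, with *Ldha*-null tumor 2 lowest and wild-type tumor 3 highest, while *Ldha*-null tumor 1, the muscle-rich tumor, was in the middle. On the log2 scale the ratio was lower by 0.44 in *Ldha*-null tumors (difference of group means -0.44, pooled SD 0.51), and by 0.45 without *Ldha*-null tumor 1 (-0.45), which is less than the spread between tumors. The difference of the nuclear sum, scaled by TMM (trimmed mean of M values), was 0.43 on the log2 scale with a pooled SD of 0.76, and -0.04 without *Ldha*-null tumor 1. That of the mitochondrial sum was -0.02 with a pooled SD of 0.90, and -0.49 without that tumor. As sums over chosen genes, these were given no test.

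**Figure D2:**
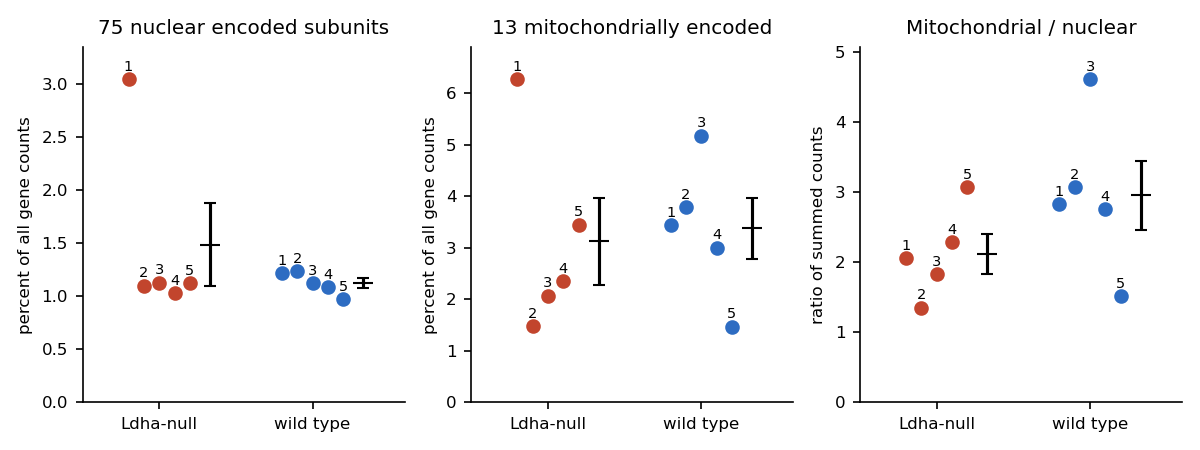
Percent of all gene counts held by the 75 nuclear encoded structural subunits (left) and the 13 mitochondrially encoded genes (middle), and the ratio of the summed counts (right), 1 point per tumor labelled with its number. Black marks are means with SEM (n = 5), and all axes start at 0. Ldha-null tumor 1 is highest in the left and middle panels, at 3.04% and 6.27%, but at 2.06 lies within the range of the others in the right panel.

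Between the genotypes, no respiratory chain gene passed the test. edgeR's quasi-likelihood test with Benjamini-Hochberg adjustment was fitted over 15176 genes, of which 103 were respiratory chain genes, and called 0 genes, 0% of those tested, and 0 of the 103. At an unadjusted p under 0.05 there were 7 respiratory chain genes higher in *Ldha*-null tumors, against 3.56% of all tested genes, and 0 lower, against 0.395%. For 0 of the 103 did the groups not overlap, against 0.185% of all tested genes. The 7 genes were the muscle isoforms Cox8b, Cox6a2 and Cox7a1 and the subunits Sdhd, Cox5a, Atp5l and Ndufb8, and without *Ldha*-null tumor 1 there were 0, against 1.25% of all genes in that fit. The 6 genes with a fold change below 0 were Ndufa4l2 (-0.60), Cox6a1 (-0.40), Cox8a (-0.14), the assembly factors Ndufaf2 (-0.08) and Ndufaf7 (-0.04), and mt-Nd6 (-0.03), on the log2 scale. Without *Ldha*-null tumor 1 these 6 also lay below 0, from -0.65 for mt-Nd6 to -0.09 for Cox8a. Across the 103 genes the median log2 fold change was 0.77, with 97 above 0, beside a median of 0.02 over all tested genes. Without *Ldha*-null tumor 1 the median was -0.08, with 38 above 0, beside -0.01 over all genes. The skeletal muscle markers moved with these values, and their part in them was not tested beyond leaving that tumor out.

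**Figure D3:**
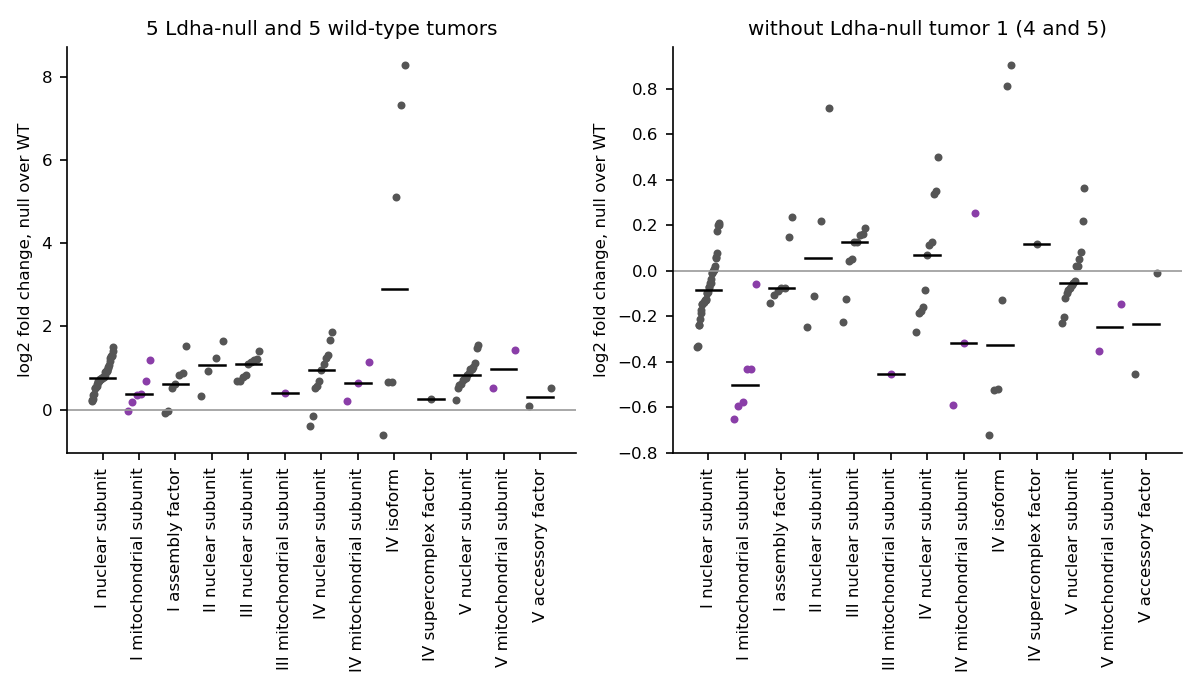
Log2 fold change of each tested gene (Ldha-null over wild type, edgeR), grouped by complex and role, with all 10 tumors (left) and without Ldha-null tumor 1 (right, 4 against 5 tumors). Horizontal bars are medians, purple points are mitochondrially encoded genes, and the vertical scales differ. Of 103 genes 97 lie above 0 on the left and 38 on the right.

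*Ldha*-null tumor 1 held more RNA of nearly every respiratory chain gene than the others. After TMM scaling, 95 of the 103 tested genes were at least 2-fold above the median of the other 9 tumors, against 23.7% of all tested genes, and 1 was at least 2-fold below, against 23.7%. The TMM factor of that tumor was 0.589. On CPM (counts scaled to the library total), with no TMM factor, 74 were at least 2-fold above, against 11.7% of all tested genes, and 4 at least 2-fold below, against 45.5%. All 36 nuclear subunits of complex I, all 4 of complex II, all 9 of complex III and all 15 of complex V were at least 2-fold above after TMM scaling, as were 9 of the 11 of complex IV. The exceptions in complex IV were Cox6a1 and Cox8a, each the partner of a muscle isoform.

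**Figure D4:**
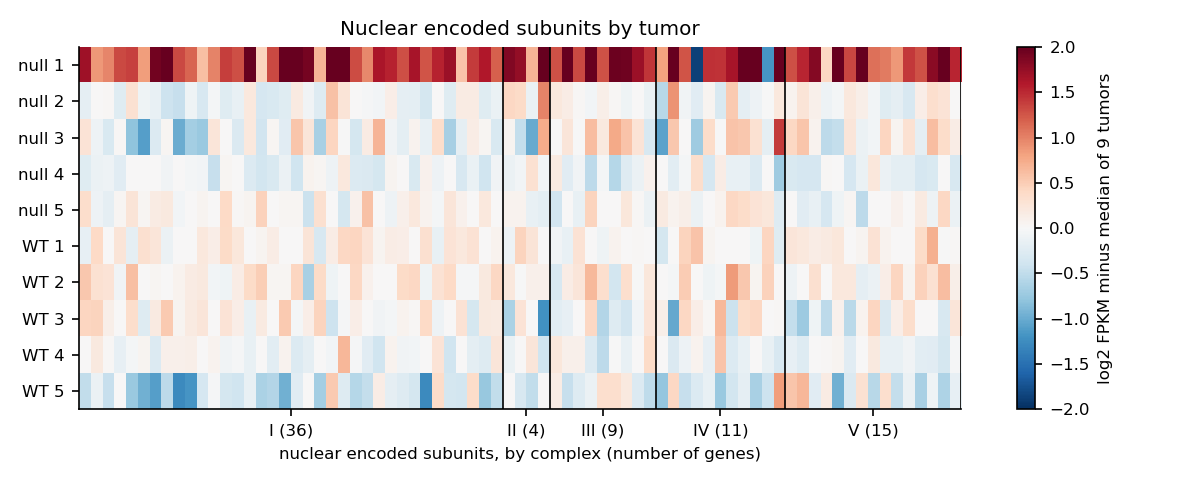
Log2 FPKM (0.1 added) of the 75 nuclear encoded structural subunits in each of the 10 tumors, relative to the median of the 9 tumors other than Ldha-null tumor 1, with genes ordered by complex. Red is above and blue below that median, with the color scale ending at 2 on either side. Ldha-null tumor 1 is red at nearly all genes, with 2 blue columns in complex IV (Cox6a1 and Cox8a).

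The tissue isoforms of complex IV were compared within each tumor as a share of the pair, per gene length. Cox6a2, Cox7a1 and Cox8b are the heart and skeletal muscle forms of subunits VIa, VIIa and VIII, and Cox6a1, Cox7a2 and Cox8a are the forms of most other tissues. Promoters of 1 gene of each kind are shown because, in *Ldha*-null tumor 1, the muscle forms of subunits VIa and VIII were above and their partners below the other tumors. Each is the 250 bases before the RefSeq start (GRCm38.p6), with motifs in capitals.
Cox6a1, chr5:115348959-115349208, minus strand: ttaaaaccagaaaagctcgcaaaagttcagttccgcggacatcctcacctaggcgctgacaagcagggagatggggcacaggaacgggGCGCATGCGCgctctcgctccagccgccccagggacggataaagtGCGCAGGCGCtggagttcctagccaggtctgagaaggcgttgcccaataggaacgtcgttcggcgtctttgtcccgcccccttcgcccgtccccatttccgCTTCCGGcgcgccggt
Cox8b, chr7:140900447-140900696, minus strand: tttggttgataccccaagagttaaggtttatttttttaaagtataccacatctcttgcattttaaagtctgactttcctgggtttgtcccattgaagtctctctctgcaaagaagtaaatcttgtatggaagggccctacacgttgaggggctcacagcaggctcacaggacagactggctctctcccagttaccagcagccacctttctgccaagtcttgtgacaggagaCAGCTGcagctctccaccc
In Cox6a1 the capitals are matches to the motif of the nuclear respiratory factor NRF1, spelled GCGC, any base and TGCGC and read on either strand, and to CCGGAAG, that of the ETS factor GABPA. In Cox8b they are the E-box CAGCTG, which reads the same on both strands. Cox8a, Cox7a1 and Cox7a2, searched in the same way over 250 bases, held no match to any motif named here. Over the 300-base windows counted below, Cox8a did hold a match to CCGGAAG. The stretches shown therefore do not stand for muscle forms and their partners in general. Over the 300-base windows of the 72 among 91 nuclear genes with a promoter in RefSeq, the NRF1 motif was found in 19 (26.4%), against 7.17% of 17492 protein-coding genes, and CCGGAAG in 17 (23.6%), against 12.9%. AAGATGGC, a motif of YY1, was found in 9 (12.5%, against 3.57%), TCAAGGTCA, of the ERR receptors, in 2 (2.78%, against 0.377%), and CAGCTG in 6 (8.33%, against 17.4%). These are matches of letters within the windows and were not tested for binding.

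Cox6a2 measured 2711, 7.75, 1.51, 3.48 and 5.43 FPKM across *Ldha*-null tumors 1 to 5 against 12.1, 9.42, 5.86, 2.83 and 1.93 FPKM across wild-type tumors 1 to 5. Its partner Cox6a1 measured 167, 519, 374, 781 and 561 FPKM across the *Ldha*-null tumors against 906, 609, 670, 637 and 502 FPKM across wild-type tumors. In *Ldha*-null tumor 1 the muscle form was thus at its highest and its partner at its lowest of the 10 tumors, and Cox6a2 made up 94.2% of the pair there and 0.383% to 1.52% in the other 9. Cox6a2 had a log2 fold change of 7.31 (edgeR, adjusted p = 0.999), which was -0.52 without that tumor.

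Cox8b measured 2492 FPKM in *Ldha*-null tumor 1 against 2.40, 0.367, 1.66 and 3.01 FPKM across *Ldha*-null tumors 2 to 5, and 4.98, 5.27, 0.426, 2.50 and 1.66 FPKM across wild-type tumors 1 to 5. Cox8a measured 198 FPKM in *Ldha*-null tumor 1 against 337 to 616 FPKM across the other 9. Cox8b made up 92.7% of this pair in *Ldha*-null tumor 1 and at most 0.848% elsewhere, so that this pair too was reversed in 1 tumor alone. The log2 fold change of Cox8b was 8.27 (edgeR, adjusted p = 0.999), and -0.72 without that tumor.

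The third muscle pair differed in that both forms were high. Cox7a1 measured 902, 10.5, 2.92, 14.6 and 8.66 FPKM across the *Ldha*-null tumors against 16, 14.4, 8.05, 9.63 and 1.47 FPKM across wild-type tumors. Cox7a2 measured 414 FPKM in *Ldha*-null tumor 1 against 98.3 to 239 FPKM elsewhere. Cox7a1 made up 68.5% of the pair in *Ldha*-null tumor 1 and 1.41% to 10.9% in the others. Among the 9 other tumors Cox7a1 and Cox6a2 were lowest in *Ldha*-null tumor 3 and wild-type tumor 5, the tumors rich in keratinocyte markers. Counts there were 16 and 8 for Cox7a1 and 15 and 19 for Cox6a2. Cox8b did not follow, with 2 counts in *Ldha*-null tumor 3 and in wild-type tumor 3 and 9 in wild-type tumor 5. Of all tested genes, 16.7% were likewise lower in both keratinocyte-rich tumors than in the rest of the 9.

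**Figure D5:**
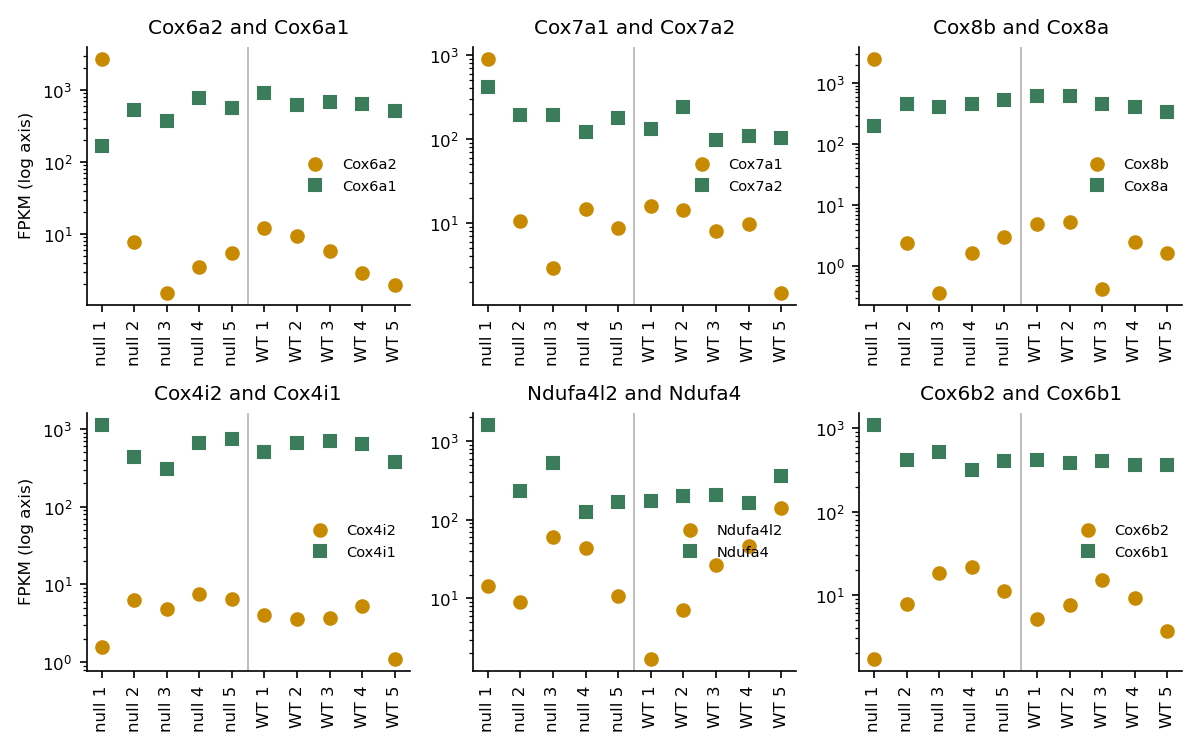
FPKM (log axis) of 6 pairs of tissue isoforms in each tumor, with the tissue-restricted form as orange circles and its partner as green squares, and the 5 Ldha-null tumors left of the grey line. The muscle forms Cox6a2, Cox7a1 and Cox8b exceed their partners in Ldha-null tumor 1 and in no other tumor, and Ndufa4l2 varies more than Ndufa4 over the other 9.

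The remaining isoforms were not those of muscle. Cox4i2, the lung and hypoxia form of subunit IV, measured 1.57, 6.35, 4.82, 7.51 and 6.47 FPKM across the *Ldha*-null tumors against 4.06, 3.64, 3.70, 5.26 and 1.1 FPKM across wild-type tumors. Its partner Cox4i1 measured 308 to 1136 FPKM, and Cox4i2 made up at most 1.54% of the pair. The log2 ratio was 0.49 higher in *Ldha*-null tumors (two-sided exact permutation test, p = 0.492, adjusted over 8 pairs 1). Without *Ldha*-null tumor 1 the difference was 1.11 (exact permutation p = 0.0159, adjusted over the pairs 0.127).

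Ndufa4l2, a hypoxia-inducible relative of the complex IV subunit Ndufa4, had the largest SD of log2 CPM of the respiratory chain genes over the 9 tumors other than *Ldha*-null tumor 1, at 2.01. It measured 14.2, 8.99, 59.9, 44.2 and 10.9 FPKM across the *Ldha*-null tumors against 1.70, 7.17, 26.7, 46.4 and 142 FPKM across wild-type tumors, and wild-type tumor 5 was highest and wild-type tumor 1 lowest. Ndufa4 measured 1613, 234, 532, 124 and 168 FPKM across the *Ldha*-null tumors against 171, 202, 206, 161 and 363 FPKM across wild-type tumors. Over the tumors other than *Ldha*-null tumor 1, both genes were highest in *Ldha*-null tumor 3 and wild-type tumor 5. The 8 hypoxia-induced markers summed to 390 and 555 FPKM across these tumors, to 684 FPKM in *Ldha*-null tumor 1 and to 172 to 347 FPKM across the other 7. The markers did not all agree in *Ldha*-null tumor 3 or in wild-type tumor 5. In *Ldha*-null tumor 3, Car9, Ankrd37, Egln3 and Pdk1 were above the other 7. Bnip3, Ndrg1 and Vegfa were not, and Adm, at 3.86 FPKM, was below all 7. In wild-type tumor 5, Ankrd37, Egln3, Ndrg1, Vegfa and Adm were above the other 7, and Car9, Pdk1 and Bnip3 were not. In *Ldha*-null tumor 1, Bnip3 alone made up 527 FPKM of that sum, while Car9, Ndrg1 and Adm were at their lowest of the 10 tumors there, at 1.95, 17.0 and 2.96 FPKM. The part of the markers in the pattern was not tested.

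Cox6b2, the testis form of subunit VIb, measured 1.70 to 21.7 FPKM across the *Ldha*-null tumors against 3.66 to 14.97 FPKM across wild-type tumors, and made up at most 6.38% of its pair with Cox6b1. Of the germ cell markers Pgk2, Cyct and Tnp1 were at 0 in all tumors. Atp5g1, Atp5g2 and Atp5g3 encode the same mature c subunit of the ATP synthase ring. Atp5g2 held 41.3% to 67.3% of their summed FPKM, Atp5g3 26.6% to 50.03% and Atp5g1 4.63% to 12.3%, with Atp5g1 at its largest share in *Ldha*-null tumor 1 and Atp5g3 ahead of Atp5g2 in wild-type tumor 5 alone. Of the 8 pairs tested, the genotypes differed in 0 (exact permutation p from 0.492 to 1, smallest possible 0.00794).

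The nuclear subunits were among the steadier genes once *Ldha*-null tumor 1 was set aside. The SD of log2 CPM over the other 9 tumors had a median of 0.33 over the 103 respiratory chain genes and of 0.51 over all tested genes. It was 0.32 over the 75 nuclear subunits, of which 71 were below the median of all genes, and 0.56 over the 12 tested mitochondrial genes, of which 1 was. Ndufb10, a membrane arm subunit of complex I, and Ndufs3, a core subunit of that complex, were among the genes that varied least. Ndufb10 measured 151, 136, 167 and 169.6 FPKM across *Ldha*-null tumors 2 to 5 and 195, 185, 183, 164 and 127 FPKM across wild-type tumors 1 to 5, against 406 FPKM in *Ldha*-null tumor 1.

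In complex II, Sdha, the flavoprotein that oxidizes succinate, measured 599 FPKM in *Ldha*-null tumor 1, 153 to 222 FPKM across *Ldha*-null tumors 2 to 5 and 107 to 192 FPKM across wild-type tumors. Sdhb, the iron-sulfur subunit, measured 66.8 to 317 FPKM across the *Ldha*-null tumors against 74.7 to 127 FPKM across wild-type tumors. Of the membrane anchors, Sdhc measured 49.3 ± 8.88 FPKM (mean ± SEM, n = 5) in *Ldha*-null and 49.4 ± 4.21 FPKM (n = 5) in wild-type tumors. Sdhd, the other anchor, measured 182, 84.5, 70.9, 41.0 and 37.2 FPKM across the *Ldha*-null tumors against 42.4, 45.3, 18.2, 32.3 and 42.7 FPKM across wild-type tumors. Its groups overlapped, and the log2 fold change of 1.65 ± 0.61 (SE) did not pass (edgeR, adjusted p = 0.999), nor did that of 0.72 without *Ldha*-null tumor 1.

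In the other complexes, Cyc1, the cytochrome c1 of complex III, measured 234 FPKM in *Ldha*-null tumor 1 against 74.6 to 114 FPKM across the other 9, and the Rieske protein Uqcrfs1 measured 197 FPKM against 39.0 to 75.8 FPKM. Cox5a, a nuclear subunit of complex IV, measured 139, 49.4, 38.6, 23.0 and 27.7 FPKM across the *Ldha*-null tumors against 26.5, 25.9, 12.96, 21.7 and 35.4 FPKM across wild-type tumors (log2 fold change 1.67, edgeR adjusted p = 0.999, and 0.50 without *Ldha*-null tumor 1). Atp5b, the catalytic subunit of the ATP synthase and the nuclear subunit with the highest mean, measured 2069, 864, 1063, 571 and 613 FPKM across the *Ldha*-null tumors against 829, 720, 435, 605 and 1138 FPKM across wild-type tumors. Some nuclear genes also share sequence with other transcripts, which makes their values uncertain: 64.1% of 50-base windows for Ndufaf2, 41.6% for Atp5o and 38.3% for Atp5g2. Of the 9 tumors other than *Ldha*-null tumor 1, Atp5b was highest in wild-type tumor 5 and *Ldha*-null tumor 3.

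In these keratinocyte-rich tumors, 18 of the 103 genes (17.5%) were above the other 7 tumors and 8 (7.77%) below them, beside 17.9% and 16.7% of all tested genes. Those above included 4 of 9 nuclear subunits of complex III (Cyc1, Uqcrc1, Uqcrc2 and Uqcrfs1) and 4 of 15 of complex V (Atp5b, Atp5a1, Atp5g1 and Atp5g3), as well as 5 of 36 of complex I (Ndufa9, Ndufb8, Ndufs1, Ndufs6 and Ndufv1). Those below included 4 of 36 of complex I (Ndufa2, Ndufa6, Ndufa7 and Ndufa13). Complex I thus stood at 13.9% above and 11.1% below, both under the shares of all tested genes. The complexes were named after their values were seen, and differences between them were not tested.

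The assembly factors and the wider mitochondrial gene lists showed smaller excesses in *Ldha*-null tumor 1 than the subunits. Of the 7 Ndufaf genes 5 were at least 2-fold above the median of the other tumors. The same held for 22 of 34 tested assembly factors outside the name prefixes, 40 of 76 tested mitochondrial ribosomal proteins, 11 of 18 inner membrane and content genes, 4 of 16 regulators of mitochondrial biogenesis and 4 of 8 genes of mitochondrial mRNA stability, against 23.7% of all genes. The median of this excess on the log2 scale was 2.36 for the nuclear subunits, 2.06 for the mitochondrial genes, 1.09 for the mitochondrial ribosome, 0.75 for the regulators and 0.01 for all genes. These counts depended on the scaling. On CPM with no TMM factor, 3 of the 7 Ndufaf genes, 8 of 34 assembly factors, 8 of 76 ribosomal proteins, 7 of 18 inner membrane and content genes, 3 of 16 regulators and 0 of 8 mRNA stability genes were at least 2-fold above, against 11.7% of all genes. At least 2-fold below were 6 regulators, 4 inner membrane and content genes, 3 ribosomal proteins and 1 assembly factor, against 45.5%. The medians were then 1.43 for the nuclear subunits, 1.30 for the mitochondrial genes, 0.18 for the mitochondrial ribosome, -0.10 for the regulators and -0.85 for all genes.

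Between genotypes these lists held few low p-values. At an unadjusted p under 0.05 there were 2 of 34 assembly factors and 1 of 76 mitochondrial ribosomal proteins higher, 0 in the other lists, and 0 lower in any, against 3.56% and 0.395% of all tested genes. Without *Ldha*-null tumor 1 there were 1 of 34 and 1 of 76, in either direction, against 1.25%. Foxred1, a complex I assembly factor, measured 13.4 ± 1.17 FPKM (mean ± SEM, n = 5) in *Ldha*-null and 8.55 ± 0.809 FPKM (n = 5) in wild-type tumors, a log2 fold change of 0.92, and 0.59 without *Ldha*-null tumor 1 (edgeR, adjusted p = 0.999). Lyrm7, which matures the Rieske protein, had a log2 fold change of 1.75 and the ribosomal protein Mrps31 one of 1.11, at the same adjusted p, which were 0.75 and 0.45 without that tumor. Among the regulators and partners, Polg, the mitochondrial DNA polymerase, Lrpprc, which stabilizes mitochondrial mRNA, and Vdac1, the outer membrane channel, had log2 fold changes of 0.45, 0.45 and 1.18, and of 0.31, 0.12 and 0.07 without *Ldha*-null tumor 1.

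The direction of most mitochondrially encoded genes between genotypes changed when *Ldha*-null tumor 1 was left out. With all tumors, 11 of the 12 tested had a log2 fold change above 0 (median 0.46), and mt-Nd6 was at -0.03. The largest, mt-Atp8 (1.43), mt-Nd3 (1.19) and mt-Co3 (1.14), belong to the scarce set with uncertain values, as do mt-Co2 and mt-Atp6. The summed counts, ruled by the abundant genes, differed by -0.02 with TMM scaling and by -0.19 with no TMM factor. Without *Ldha*-null tumor 1, 11 of 12 were below 0 (median -0.43), with mt-Co2 at 0.25, while 37 of 91 nuclear genes were above 0 (median -0.06). None of the 12 passed the test in either fit.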

How the data were processed

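Messenger RNA of 10 whole tumors was enriched on oligo(dT) and sequenced by the authors on a HiSeq2500 (CASAVA 1.8, TopHat2 to mm10, HTSeq in union mode). The counts per gene were deposited by the authors as whole numbers, and the FPKM values were also deposited by the authors. For TopHat2, HTSeq and the annotation no version is given in the sources used here. Samples were grouped by their labelled genotype, 5 against 5, and separate animals are named only in the design text.

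The genotype test used edgeR 4.0.16 under R 4.3.3 (filterByExpr, minimum count 10, TMM, quasi-likelihood F-test, Benjamini-Hochberg threshold 0.05), after the script was tested on simulated data. The alternatives used limma 3.58.1 and DESeq2 1.42.0. Log2 CPM used a prior count of 2, and isoform ratios used FPKM plus 0.1 with a two-sided exact permutation test over 252 assignments. No duplicate libraries were found. For genes with many counts, counting error is small beside a biological coefficient of variation of 63.4%. It is not small for the lowest values, such as Cox8b with 2 counts in *Ldha*-null tumor 3 and in wild-type tumor 3. Sequences came from GENCODE M21 and RefSeq. Members and gene lists were chosen with earlier results of these data known. Genes named were all mitochondrial genes, Sdha to Sdhd, Cyc1, the isoform pairs, extremes of level, spread and p, and the leading genes of each list. A gene that this rule names and an allele of the model are not reported here. A few further names in complexes were chosen after their values were seen.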

Additional observations from a re-analysis of the deposited data

Results flagged for a closer look

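Of 88 groups of 5 tumors examined for a single tumor far from the rest, 15 were flagged. Chance would give about 4 for independent groups not chosen from these data, and neither condition holds. The groups share tumors, and some genes were chosen by their p or by their spread without *Ldha*-null tumor 1, so 15 against 4 is no test. The comparison was made on log2 CPM after TMM scaling, and the values of genes are given as FPKM. In 14 of them the tumor was *Ldha*-null tumor 1. There the 75 nuclear subunits together held 3.04% of counts, and the FPKM was 2711 for Cox6a2, 2492 for Cox8b, 902 for Cox7a1, 871 for Atp5g2, 198 for Atp5g1, 599 for Sdha, 317 for Sdhb, 406 for Ndufb10 and 299 for Ndufs3. Of the mitochondrial genes with few counts, mt-Atp8 was at 108, mt-Atp6 at 48.1 and mt-Co3 at 33.9 FPKM in that tumor. Cox4i2 was flagged as low there, at 1.57 FPKM. In wild-type tumor 5, Ndufa4 was flagged at 363 FPKM.

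The 7 pseudogene rows on chromosome 1 that copy mitochondrial genes, which no comparison used, held counts. The highest count in a tumor was 529 at RP23-8J15.5 (the copy of mt-Nd3), 358 at RP23-8J15.2 (mt-Co2), 266 at RP23-8J15.1 (mt-Co1), 250 at RP23-8J15.3 (mt-Atp6), 81 at RP23-8J15.4 (mt-Co3), 14 at RP23-8J15.7 (mt-Nd4) and 13 at Gm10222 (mt-Nd4l). Whether these counts come from the nuclear copies or from mitochondrial RNA was not tested.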

How the results depend on the processing

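No respiratory chain gene was called under any of the 18 alternatives, and DESeq2 called 1 gene of the whole table, G0s2, which is no respiratory chain gene. The count at an unadjusted p under 0.05, which was 7, was 0 with limma-voom and quality weights, 0 with tumor number as a replicate block and 4, all lower (Ndufa10, mt-Co1, mt-Nd5 and mt-Nd6), when *Ldha*-null tumors 1 and 3 were left out together with wild-type tumor 5. Leaving out 1 tumor gave 0 (without *Ldha*-null tumor 1) to 26 (without *Ldha*-null tumor 4). Without *Ldha*-null tumors 2, 3 and 5 it was 22, 11 and 21, and without wild-type tumors 1, 3 or 4 it was 4. Tumors of the same number share only a number: their deviations correlated at -0.04, 0.06, -0.27, 0.55 and -0.51, and only tumor 4 correlated best with its own number.

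The difference of the nuclear sum was 0.26 with no TMM factor and -0.16 without the 3 tumors, and that of the mitochondrial sum was -0.19 and -0.78. With a mean of log2 values they were 0.45 and 0.18. Over the 5 mitochondrial genes with few copies, chosen after seeing the data, the difference of the mitochondrial sum was 0.03 and that of the ratio to nuclear counts was -0.40. The ratio stayed below 0 in every alternative, from -0.66 to -0.26. The replicate block left the 3 differences of sums and ratio at 0.43, -0.02 and -0.44 by construction.

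The isoform differences changed in sign or size as follows. Without the 3 tumors they were -0.13 for Cox6a2 over Cox6a1, -0.30 for Cox7a1 over Cox7a2, 0.77 for Cox4i2 over Cox4i1 (exact permutation p = 0.0286, adjusted over the pairs 0.229), 0.66 for Ndufa4l2 over Ndufa4, 0.57 for Cox6b2 over Cox6b1 and -0.027 for Atp5g1 over Atp5g2. As differences of medians they were -0.57 for Cox7a1, -0.20 for Cox8b and 0.47 for Cox6b2. Leaving out 1 tumor gave -0.14 to 2.83 for Cox6a2 over Cox6a1, -0.34 to 1.44 for Cox7a1 over Cox7a2, -0.48 to 2.87 for Cox8b over Cox8a, and 0.25 to 1.11 for Cox4i2 over Cox4i1. It gave -1.29 to 0.18 for Ndufa4l2 over Ndufa4, -0.53 to 0.82 for Cox6b2 over Cox6b1, -0.20 to 0.25 for Atp5g1 over Atp5g2, and -0.17 to 0.23 for Atp5g3 over Atp5g2. Of the 56 tested genes named, none was called under any alternative, and the sign changed for 23 without *Ldha*-null tumor 1, 33 without the 3 tumors, 21 with limma-voom, 5 with the replicate block and at most 3 in each of the other alternatives.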
